A study of Mus musculus with 9 samples.

Results

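The nuclear genes for oxidative phosphorylation described here are those whose symbol begins with Ndufa, Ndufb, Ndufc, Ndufs, Ndufv, Uqcr, Cox4i, Cox5, Cox6, Cox7, Cox8 or Atp5, with Sdha, Sdhb, Sdhc, Sdhd and Cyc1. There were 91 such genes among the 18193 genes named by probe sets that map to 1 gene, read by 180 probe sets. Where several probe sets read a gene, the brightest on average over all arrays stood for it. The name rule caught 8 factors that assemble complex I without being part of it (Ndufaf1 to Ndufaf8), so 83 of the genes are named as subunits or their isoforms. The subunits encoded by mitochondrial DNA fall outside the rule.

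Oxidative phosphorylation is the process by which mitochondria use electrons from NADH and succinate to make ATP. Complexes I and II pass the electrons to ubiquinone, complex III passes them on to cytochrome c, and complex IV gives them to oxygen, while complexes I, III and IV pump protons whose return through complex V drives ATP synthesis. Skeletal muscle is among the tissues richest in these complexes, slow and oxidative fibres more so than fast glycolytic ones, and in muscle several subunits of complex IV are replaced by isoforms largely restricted to heart and skeletal muscle.

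The RNA came from quadriceps femoris, a thigh muscle, of 9 female C57Bl/6 HT transgenic mice, 3 in each of 3 groups and 1 array each, carrying a self MHC class I transgene that is silent while doxycycline is given. Late mice received doxycycline until day 35 and were killed, by their sample labels, at 50 days of age. Early mice were taken off doxycycline at day 21 and killed at 35 days, after 2 weeks of transgene expression. Control mice were kept on doxycycline throughout and killed at 35 days. The protocol calls the controls single transgenic littermates, while their sample description gives the same transgenic strain as for the other mice. Genotype, doxycycline and transgene expression therefore cannot be told apart in the 2 comparisons with controls, and age differs as well wherever the late group enters. The promoter that drives the transgene is not given in the sources used here.

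H2-K1, a classical MHC class I heavy chain, checked the labels. Its log2 values were 14.20, 13.11 and 14.31 in late muscle, 14.67, 14.64 and 14.69 in early muscle, and 10.88, 10.47 and 10.21 in control muscle, with no overlap between either transgene-expressing group and the controls. The 9 muscle fibre markers, among them Acta1, Ckm and Mb, were all past the filter, and their summed log2 level was 18.46 to 18.55 in late, 18.40 to 18.46 in early and 18.43 to 18.58 in control muscle. In a bulk tissue, fewer cells of a type and less RNA per cell cannot be told apart.

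Of the 91 genes, 85 were above a log2 value of 5 in at least 3 arrays, and these 85 were above it on all 9. The 6 that were not are Ndufb4, an accessory subunit of complex I, and Ndufa4l2, Cox4i2, Cox6b2, Cox7b2 and Cox8c, isoforms best known from other tissues or conditions. Ndufb4 encodes a general subunit, and its single probe set read 2.12 to 2.20 on every array, which sets no level for the gene. By complex, the 85 comprised 6 core and 28 accessory subunits of complex I, 8 complex I assembly factors, 4 subunits of complex II, 9 of complex III, 13 of complex IV and 17 of complex V. Ndufa4 was grouped with complex I by its name, although it is now usually counted with complex IV.

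The probe sets of these genes were very bright and varied little between animals. Of the 91 genes, 65 had a mean log2 value above 13, and 52 lay above the 99th percentile of all probe sets (13.46). The median residual SD of the 85 genes was 0.102 on the log2 scale, against 0.258 over all 9697 genes tested, and 79 of the 85 lay below that all-gene median. Of the 177 genes at least as bright as the median of the 85, 43 are among the 85 themselves; these had a median residual SD of 0.0852, and the other 134 had one of 0.141. Whether probe sets this bright still respond in full to a change in RNA was not tested. The range over the 9 arrays was 0.39 at the median of the 85 genes, under 0.50 for 61 of them and above 1 for 5.

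Read by its brightest probe set on all 9 arrays, no gene of oxidative phosphorylation passed the test between late and control muscle or between early and control muscle, and the median shifts of the group were of a few percent. Other choices gave calls. Uqcr10 passed in both comparisons on its dimmer probe sets. Without early 3, 5 of the 85 genes passed in early minus control, where 18.1% of all genes did. With array weights 1 of the 85 passed in late and 11 in early minus control, where 1037 and 3335 of all 9697 genes did. In late against control muscle 0 of 85 genes were called (limma, Benjamini-Hochberg adjusted p under 0.05), where 0.206% of all genes tested were called. In early against control muscle 0 of 85 were called, where 1.19% of all genes were. At an unadjusted p under 0.05 there was 1 gene in late muscle (Sdhc, lower), against 17.3% of all genes in either direction and 8.44% lower. In early muscle there were 5 (Ndufs1, Ndufc1, Ndufaf1, Ndufaf6 and Sdha, all lower), against 18.5% in either direction and 9.89% lower.

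The typical difference was small and mostly below 0. The median log2 difference of the 85 genes was -0.06 in late minus control, against 0.01 over all genes tested, and 59 of the 85 were below 0. In early minus control it was -0.08, against -0.03 over all genes, and 66 of the 85 were below 0. The 134 equally bright genes outside the group had a median of -0.00 in late minus control, with 68 of them below 0, and of -0.07 in early minus control, with 83 below 0. No test of these differences was made. The 95% confidence interval of the measured intensity difference lay within a 1.5-fold change either way for 76 of 85 genes in late minus control and for 73 of 85 in early minus control.

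Array by array, the median of the 85 genes relative to their control means was -0.07, -0.04 and -0.05 in late muscle, -0.08, -0.12 and -0.02 in early muscle, and 0.04, -0.04 and 0.02 in control muscle. The lowest array was early 2 and the highest control 1. Early 3 lay among the controls and late 2 just above the lowest control, so both groups overlapped with the controls by 1 array. The pooled SD between arrays of a group was 0.040.

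**Figure D1:**
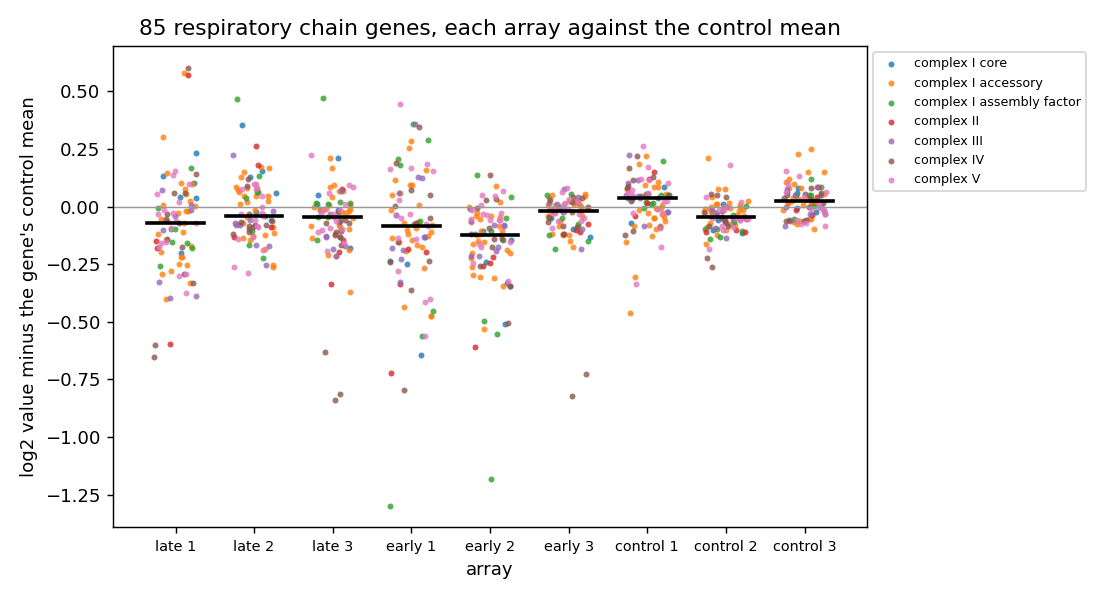
Each point is 1 of the 85 genes on 1 array, as its log2 value minus the gene's mean over the 3 control arrays, coloured by complex; the black bar is the median of the array. The medians run between -0.12 (early 2) and 0.04 (control 1) and early 3 lies among the controls.

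Counted in either direction, groups that did not overlap were no more frequent among these genes than among all genes. In late against control muscle the 3 values of each group did not overlap for 17 of 85 genes, against 31% of all genes; 15 were lower and 2 were higher (Ndufa3 and Ndufaf5), against 14.9% lower and 16% higher among all genes. In early against control muscle 17 of 85 did not overlap, against 23.6% of all genes, with 16 lower and 1 higher (Ndufaf8), against 13.9% lower and 9.63% higher. Cyc1, the cytochrome c1 of complex III, read 13.60, 13.91 and 13.82 in late muscle, 13.86, 13.91 and 13.90 in early muscle, and 13.97, 13.94 and 14.07 in control muscle. All 3 controls lay highest, by a small margin, and the differences of -0.21 in late and -0.10 in early muscle did not pass the test (adjusted p = 0.416 and 0.687). The comparisons share the control arrays.

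Between late and early muscle 2 genes were called, both higher in late muscle: Sdha and Ndufaf5. That is 2 of 85, where 11.5% of all genes tested were called and 6.23% were called higher. At an unadjusted p under 0.05 there were 5 of 85, against 34.2% of all genes: Sdha, Ndufs1, Ndufaf5 and Ndufaf6 were higher in late muscle and Ndufaf8 was lower. Late and early values were fully apart for 25 of 85 genes, against 32.1% of all genes; 16 were higher in late muscle, against 18.3% of all genes, and 9 were lower, against 13.7%. The median difference was 0.01, against 0.03 over all genes.

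Sdha encodes the flavoprotein of complex II, the subunit that oxidises succinate and also works in the citric acid cycle. Its log2 values were 13.63, 13.32 and 13.13 in late muscle, 12.33, 12.45 and 12.95 in early muscle, and 13.18, 12.95 and 13.04 in control muscle. Every late value lay above every early value, early 1 and 2 lay below every control, and early 3 lay between the controls. The late minus early difference was 0.78 on the log2 scale (SE 0.20), a 1.72-fold change, with an adjusted p of 0.0412. Late minus control was 0.30 (adjusted p = 0.458) and early minus control -0.48 (adjusted p = 0.249), neither past the test. With the replicate number as a block the late minus early adjusted p was 0.0575, and with 1 array left out at a time it ranged between 0.00551 (without early 3) and 0.126 (without early 1), under 0.05 in 2 of the 9 fits.

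A 2nd Sdha probe set that passed the filter read 13.04, 13.10 and 12.71 in late muscle, 12.26, 12.45 and 12.61 in early muscle, and 12.83, 12.64 and 12.85 in control muscle. It ran the same way, late minus early by 0.51, and did not pass on its own (adjusted p = 0.0700 over all probe sets).

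Ndufaf5 encodes a mitochondrial methyltransferase-like protein, known from human cells to hydroxylate the complex I core subunit NDUFS7 during assembly. It read 9.84, 10.14 and 10.14 in late muscle, 9.22, 9.12 and 9.66 in early muscle, and 9.72, 9.57 and 9.72 in control muscle. All 3 late values lay above all others, and early 3 again lay within the range of the controls. The late minus early difference was 0.71 (SE 0.17), a 1.63-fold change, with an adjusted p of 0.0377. Late minus control was 0.37 (adjusted p = 0.315) and early minus control -0.34 (adjusted p = 0.323). With the replicate number as a block the late minus early adjusted p was 0.0415, and with 1 array left out it ranged between 0.00469 (without early 3) and 0.110 (without early 1), under 0.05 in 1 of the 9 fits. Its human partner protein NDUFAF8 is encoded in the mouse by Ndufaf8. Ndufaf8 read 10.91, 10.95 and 11.12 in late muscle, 11.46, 11.21 and 11.23 in early muscle, and 11.16, 11.17 and 11.17 in control muscle, lower in late than in early muscle by 0.30 without passing the test (adjusted p = 0.135).

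The promoters of these 2 called genes are shown because both hold a form of the element of nuclear respiratory factor 1 (NRF1), a transcription factor known for binding in promoters of respiratory chain genes. They were taken from RefSeq (GRCm38.p6) as 300 bases that lie mostly before the gene's start, read 5′ to 3′ on the gene's own strand. Capitals mark GCGCANGCG, searched on both strands. The Sdha window lies at chr13:74350191-74350490 on the minus strand and the Ndufaf5 window at chr2:140170396-140170695 on the plus strand.
Sdha: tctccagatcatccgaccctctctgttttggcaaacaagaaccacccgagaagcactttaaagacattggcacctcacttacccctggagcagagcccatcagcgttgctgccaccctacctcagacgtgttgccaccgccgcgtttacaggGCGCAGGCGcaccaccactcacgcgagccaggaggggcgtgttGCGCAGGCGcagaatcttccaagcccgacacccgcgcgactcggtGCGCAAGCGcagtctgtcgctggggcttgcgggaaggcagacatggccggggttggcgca
Ndufaf5: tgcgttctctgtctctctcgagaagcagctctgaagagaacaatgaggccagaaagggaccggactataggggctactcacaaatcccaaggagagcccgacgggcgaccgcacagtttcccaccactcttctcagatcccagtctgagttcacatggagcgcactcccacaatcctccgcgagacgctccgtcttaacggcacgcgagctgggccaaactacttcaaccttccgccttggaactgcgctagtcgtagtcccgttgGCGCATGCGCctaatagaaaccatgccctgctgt

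A promoter window was found for 74 of the 91 genes and for 27025 genes in all. GCGCANGCG lay at 20 of the 74 genes (27.0%) and at 7.03% of all genes, and Sdha held it 3 times. The strict palindrome CGCATGCG, which can overlap it and does so in the Ndufaf5 window, lay at 10 (13.5%) against 2.07%. CCGGAAG, bound by the ETS factor GABP, lay at 19 (25.7%) against 9.93%, and AAGATGGCG, bound by YY1, at 7 (9.46%) against 1.64%. AAGGTCA, bound by the oestrogen-related receptors, lay at 8 (10.8%) against 5.38%. A match is a run of letters and not a measured site.

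Among the core subunits of complex I, Ndufs1 came closest to a call. Ndufs1 is the large iron-sulfur protein of the arm that takes electrons from NADH. It read 13.22, 13.47 and 13.17 in late muscle, 12.48, 12.61 and 12.99 in early muscle, and 13.16, 13.01 and 13.20 in control muscle. Each early value lay below each late and each control value, and late and control values overlapped. Late minus early was 0.60 (SE 0.17, adjusted p = 0.0515), early minus control -0.43 (adjusted p = 0.228) and late minus control 0.17 (adjusted p = 0.639). Without early 3 it passed the test in late minus early (adjusted p = 0.00850) and in early minus control (adjusted p = 0.0326). With array weights it passed in both as well (adjusted p = 0.00476 and 0.0141). In late minus early it also passed with a filter at log2 6 and with trend and robust fitting (adjusted p = 0.0471 and 0.0367). It did not pass there without a filter, with median centring, with quantile normalization or with the replicate block.

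Read by their brightest probe sets, all 6 core subunits were below 0 in early minus control (median -0.12). All were above 0 in late minus early (median 0.20), and 5 of 6 in late minus control (median 0.04). The direction in late minus control changed with the probe set. Other passing ones lay below 0 for Ndufs7 (-0.01), Ndufv2 (-0.03 and -0.08) and Ndufs8 (-0.07, -0.09 and -0.09). A further Ndufs8 probe set lay above 0 (0.02). Ndufv2, an iron-sulfur protein beside the NADH site, read 14.48, 14.50 and 14.43 in late muscle, 14.20, 14.11 and 14.35 in early muscle, and 14.42, 14.42 and 14.50 in control muscle. All 3 early values again lay lowest, with early 3 nearest to the rest, and late minus early was 0.25 (adjusted p = 0.169). Ndufv1, which carries the flavin that accepts electrons from NADH, differed by 0.01 between late and early muscle. The array medians of the 6 were 0.07, 0.09 and -0.00 in late, -0.18, -0.19 and -0.05 in early, and 0.03, -0.04 and 0.06 in control muscle.

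The 28 accessory subunits of complex I, which surround the core, had a median difference of -0.03 in late minus control, -0.07 in early minus control and 0.04 in late minus early. Ndufc1, a small accessory subunit of the membrane arm, had the smallest p among them in early minus control: it read 14.01, 14.31 and 14.25 in late muscle, 13.79, 13.73 and 14.14 in early muscle, and 14.17, 14.31 and 14.32 in control muscle. Early minus control was -0.38 (adjusted p = 0.246), with every early value below every control. Ndufb7 ran the other way between late and early muscle, at 12.77, 12.81 and 12.85 in late, 13.18, 12.94 and 13.11 in early and 13.05, 13.05 and 13.08 in control muscle; late minus early was -0.27 (adjusted p = 0.151). Ndufa9 and Ndufb8, often used as protein markers of complex I, had late minus control differences of -0.02 and -0.09 and early minus control differences of -0.17 and -0.07.

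Of the 8 assembly factors, Ndufaf6 had the largest difference from control of all 85 genes. It read 9.77, 9.76 and 9.88 in late muscle, 8.57, 8.69 and 9.72 in early muscle, and 9.88, 9.74 and 9.99 in control muscle. Early 1 and 2 lay more than 1 log2 unit below every other array, while early 3 lay only just below the lowest late and control arrays. Early minus control was -0.88 (SE 0.27, adjusted p = 0.166) and late minus early 0.81 (adjusted p = 0.0807). Without early 3 the early minus control difference was -1.24 with an adjusted p of 0.00121, so that 1 array decides the call. Without it, 5 of the 85 genes passed in early minus control, all lower (Ndufaf1, Ndufaf6, Ndufc1, Ndufs1 and Sdha), and 5 passed in late minus early, all higher (Ndufaf1, Ndufaf5, Ndufaf6, Ndufs1 and Sdha). Over all genes the calls without early 3 were 18.1% in early minus control (8.15% lower), against 1.19% with all arrays, and 30.5% in late minus early (14.7% higher), against 11.5% with all arrays. The members' 5 of 85 are fewer than these shares of all genes. The H2-K1 value of early 3 was as high as those of early 1 and 2. Why early 3 differed from them in other genes was not tested.

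**Figure D2:**
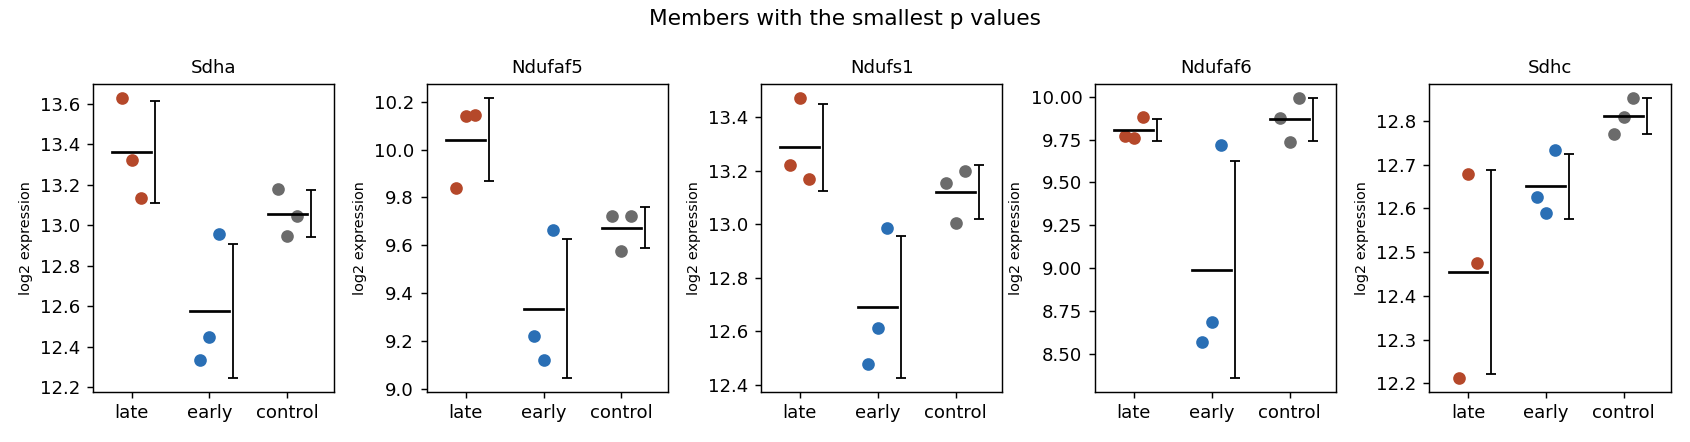
Log2 expression per array (points), group mean (bar) and SD (error bar, n = 3) for Sdha, Ndufaf5, Ndufs1, Ndufaf6 and Sdhc, with late, early and control from left to right and a separate axis for each gene. In the first 4 panels the early group holds the lowest values and its highest point is early 3 (12.95, 9.66, 12.99 and 9.72); in Sdhc the late group is lowest.

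The other subunits of complex II were not called, and no test set them against Sdha. Sdhc, which anchors the complex in the membrane, read 12.21, 12.68 and 12.48 in late muscle, 12.63, 12.59 and 12.73 in early muscle, and 12.77, 12.81 and 12.85 in control muscle. Every late and every early value lay below the controls, yet late minus control was -0.36 (SE 0.14) and did not pass the test (adjusted p = 0.269). The iron-sulfur subunit Sdhb and the anchor Sdhd had late minus early differences of 0.06 and 0.17 (adjusted p = 0.768 and 0.429). In early minus control all 4 subunits were below 0, between -0.48 (Sdha) and -0.16 (Sdhc).

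In complex III, 8 of 9 genes were below 0 in late minus control (median -0.10) and 6 of 9 in early minus control (median -0.07), with no call. Uqcrc1, a core protein on the matrix side, read 13.19, 13.35 and 13.30 in late muscle, 13.19, 13.30 and 13.33 in early muscle, and 13.56, 13.42 and 13.56 in control muscle. Both transgene-expressing groups lay below the controls without overlap, by 0.24 each on the log2 scale, and neither difference passed (adjusted p = 0.349 in late and 0.312 in early muscle). Uqcrfs1, the Rieske iron-sulfur protein, had differences of -0.10 and -0.15. Uqcrq, a small subunit of the membrane part, was lowest in late 1 and highest in early 1, with a late minus early difference of -0.32 (adjusted p = 0.174).

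Uqcr10, another small subunit of complex III, gave differing answers from its 3 probe sets. The brightest one, which the name rule takes (1424364_a_at), read 13.31, 13.16 and 13.10 in late muscle, 13.29, 13.16 and 13.31 in early muscle, and 13.46, 13.10 and 13.15 in control muscle, and its differences from control were -0.05 and 0.02. Probe set 1434340_at read 9.22, 10.21 and 10.55 in late muscle, 10.13, 9.64 and 10.30 in early muscle, and 3.93, 5.50 and 5.16 in control muscle. Probe set 1434341_x_at read 10.55, 10.90 and 11.22 in late muscle, 10.89, 10.55 and 10.99 in early muscle, and 8.76, 8.51 and 8.44 in control muscle.

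On the 2 dimmer probe sets the late and early values lay together and all 6 lay far above the 3 controls, while the bright probe set was level. With each of the 16048 probe sets tested on its own, 1434340_at was higher by 5.13 in late muscle (SE 0.46, adjusted p = 0.00485) and by 5.16 in early muscle (SE 0.46, adjusted p = 0.00358), a 35.1-fold and a 35.7-fold difference. Its control mean of 4.86 lies under the filter value of 5; set against 5 itself, the early difference is 5.02. Probe set 1434341_x_at was higher by 2.32 in late muscle (adjusted p = 0.00485) and by 2.24 in early muscle (adjusted p = 0.00387). By p value these 2 probe sets ranked 5 and 4 in late minus control, and 7 and 8 in early minus control.

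These 2 were the probe sets called among the 153 passing ones of the 85 genes, in each comparison with controls; 0.162% of all probe sets were called in late muscle (0.0935% higher) and 1.02% in early muscle (0.879% higher). In late minus early the 2 called were those of Sdha and Ndufaf5, where 11.2% of all probe sets were called. They were chosen after their values were seen. Both probe sets were designed from the same source sequence, so they are not independent readings, and an ending of x_at marks probes that can bind other transcripts. What they bind in these muscles was not tested. The controls may also differ from the other mice in genotype, and a difference by genotype cannot be told apart from one that follows transgene expression. Leaving out 1 array at a time, 1434340_at stayed called in all 9 fits of both comparisons, and 1434341_x_at in all 9 for early and in 8 of 9 for late muscle.

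**Figure D3:**
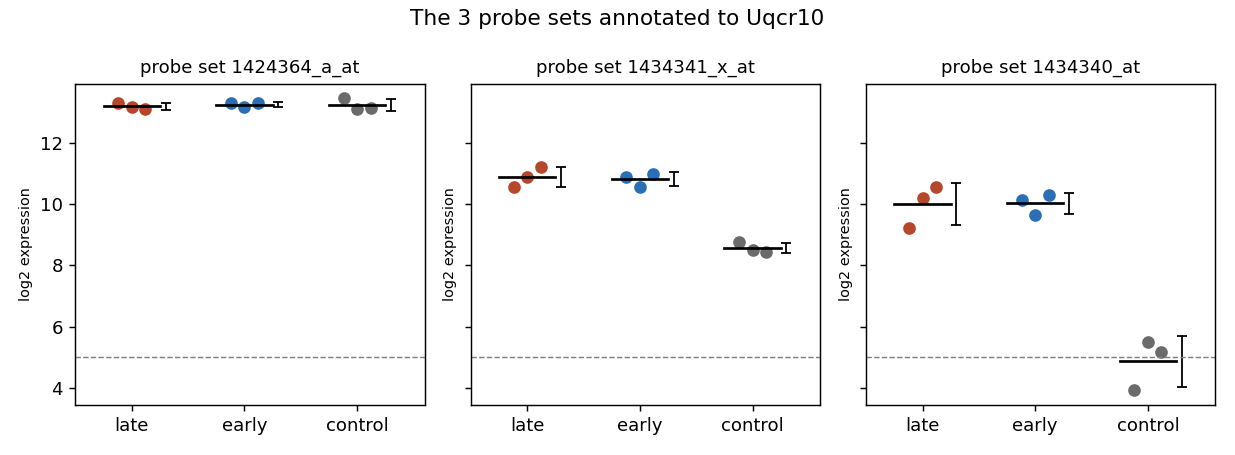
Log2 expression per array (points), group mean (bar) and SD (error bar, n = 3) for the 3 probe sets annotated to Uqcr10, with late, early and control from left to right on a shared axis; the dashed line is the filter value of 5. The brightest probe set is level near 13.2, and the other 2 are higher in late and early than in control muscle.

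Of the 85 genes, 45 had more than 1 passing probe set. Their differences lay within 0.25 of each other for 39 of 45 in late minus control and for 36 of 45 in early minus control. That bound is wider than the median absolute difference of the 85 genes, 0.08 in late and 0.12 in early minus control. It therefore cannot show whether the probe sets of a gene shared a direction. Those of Ndufab1 spread by 1.51 in late and 0.76 in early minus control, and those of Ndufaf4 by 0.34 and 0.61. Ndufs4, an accessory subunit needed for complex I assembly, also exceeded the bound. Its brightest probe set differed by 0.02 in early minus control, whereas a dimmer one (1418117_at) read 9.55, 9.79 and 9.69 in late muscle, 7.20, 7.88 and 9.28 in early muscle, and 9.07, 9.47 and 9.51 in control muscle. There early 1 and 2 lay far below the rest and early 3 did not; late minus early was 1.56 (adjusted p = 0.0540) and early minus control -1.23 (adjusted p = 0.229).

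In complex IV, 11 of 13 genes were below 0 in late minus control (median -0.09) and 9 of 13 in early minus control (median -0.16), with no call. Cox4i1 and Cox5a, general subunits that bind close to the catalytic core, differed from control by -0.11 and -0.15 in late muscle and by 0.02 and -0.16 in early muscle. Cox6b1, the brightest probe set of all 85 genes, kept between 15.00 and 15.21 on the 9 arrays. Cox7a2l differed from control by -0.05 in late and 0.12 in early muscle. Cox7c was read by a dim probe set, with values of 7.07, 6.58 and 5.83 in late muscle, 5.67, 6.29 and 6.38 in early muscle, and 6.38, 6.52 and 6.50 in control muscle; the groups overlapped and no difference passed.

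**Figure D4:**
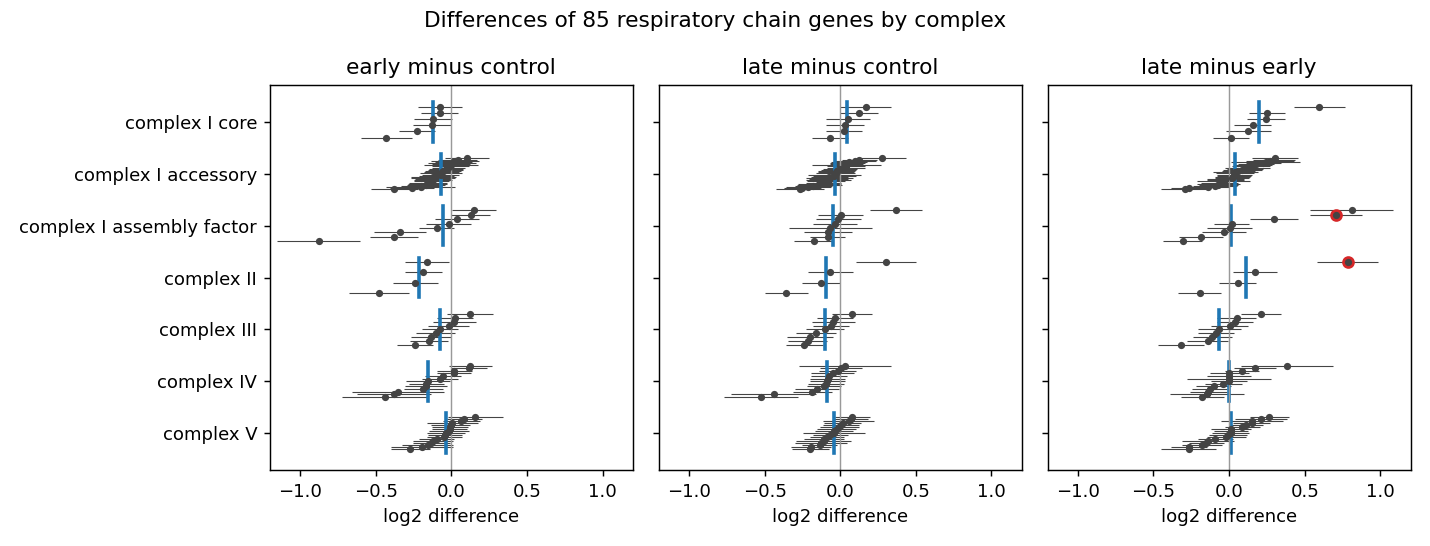
Log2 difference of each of the 85 genes (points) with its SE (grey line), by complex, in early minus control, late minus control and late minus early; the blue bar is the median of the complex and red points were called. The medians of the complexes lie between -0.21 and 0.20, and the 2 called genes are Sdha and Ndufaf5 in late minus early.

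The isoforms of complex IV are of interest in muscle, since Cox6a2, Cox7a1 and Cox8b are the forms of heart and skeletal muscle and Cox6a1, Cox7a2 and Cox8a are found widely. Of 6 pairs set up for comparison, 3 could be read; in the other 3 (Cox4i2 with Cox4i1, Cox6b2 with Cox6b1, Ndufa4l2 with Ndufa4) the restricted form did not pass the filter. The muscle forms were steady: Cox6a2 ranged between 13.78 and 14.27, Cox7a1 between 13.96 and 14.35 and Cox8b between 14.46 and 14.74 over all 9 arrays.

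Of the general forms, Cox6a1 and Cox8a varied more, and together. The group means of Cox7a2 lay close, at 14.43 in late, 14.34 in early and 14.51 in control muscle. Cox6a1 read 12.86, 13.43 and 12.67 in late muscle, 13.43, 13.17 and 12.78 in early muscle, and 13.73, 13.25 and 13.55 in control muscle. Cox8a read 8.11, 8.80 and 7.90 in late muscle, 8.72, 8.21 and 7.89 in early muscle, and 8.88, 8.49 and 8.77 in control muscle. In both genes late 2 and early 1 lay among the controls and the other 4 arrays of these groups lay lower. No difference passed the test: for Cox6a1, late minus control was -0.52 (adjusted p = 0.313) and early minus control -0.38 (adjusted p = 0.419), and for Cox8a both were -0.44 (adjusted p = 0.443 and 0.410).

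The same arrays differed in Cidea, a marker of brown adipocytes, the heat-producing fat cells that express Ucp1. Cidea, a lipid droplet protein of these cells, read 4.16, 10.23 and 5.09 in late muscle, 7.70, 4.06 and 4.46 in early muscle, and 9.65, 8.08 and 9.23 in control muscle. Ucp1 read 3.00, 11.68 and 6.49 in late muscle, 6.33, 2.73 and 3.42 in early muscle, and 10.39, 7.74 and 9.62 in control muscle. The 5 arrays with the highest Cidea values were the 5 with the highest Cox6a1 and Cox8a values. Of these 5 arrays, 4 were among the 5 highest for Ucp1, 4 for Cox7a1 and 4 for Cox7a2. For Cox6a2 the count was 3 and for Cox8b 2. Of the 5 brown adipocyte markers, 3 passed the filter, of which Cox8b is itself one of the complex IV genes; Dio2 and Elovl3 did not pass. The summed log2 level of the list, set by Cox8b, was 14.53 to 14.73 in late, 14.58 to 14.75 in early and 14.56 to 14.75 in control muscle. The adipocyte markers (6 of 9 tested, Adipoq and Fabp4 among them) summed to 15.93 to 16.46 in late, 15.55 to 15.74 in early and 16.05 to 16.30 in control muscle, so that early muscle lay wholly below both other groups. The part of fat tissue in the Cox6a1 and Cox8a values was not tested.

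The log2 ratios of muscle to general isoform were compared between groups, in a design of 3 against 3 arrays that cannot give a p below 0.1. Cox6a2 over Cox6a1 was 1.15 ± 0.44 in late, 0.83 ± 0.44 in early and 0.62 ± 0.20 in control muscle (SD, n = 3 each). Cox8b over Cox8a was 6.26 ± 0.52 in late, 6.39 ± 0.34 in early and 5.83 ± 0.18 in control muscle, and Cox7a1 over Cox7a2 was -0.32 ± 0.14, -0.24 ± 0.09 and -0.22 ± 0.03 in late, early and control muscle. In 9 two-sided exact permutation tests the smallest p was 0.2 (0.45 adjusted over the 9). The Cox6a2 to Cox6a1 ratio was higher by 0.53 in late than in control muscle and the Cox8b to Cox8a ratio by 0.56 in early than in control muscle, each larger than the SD of either group, with an exact p of 0.2 each. Only differences of a ratio between groups can be read, since its level depends on the probes.

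**Figure D5:**
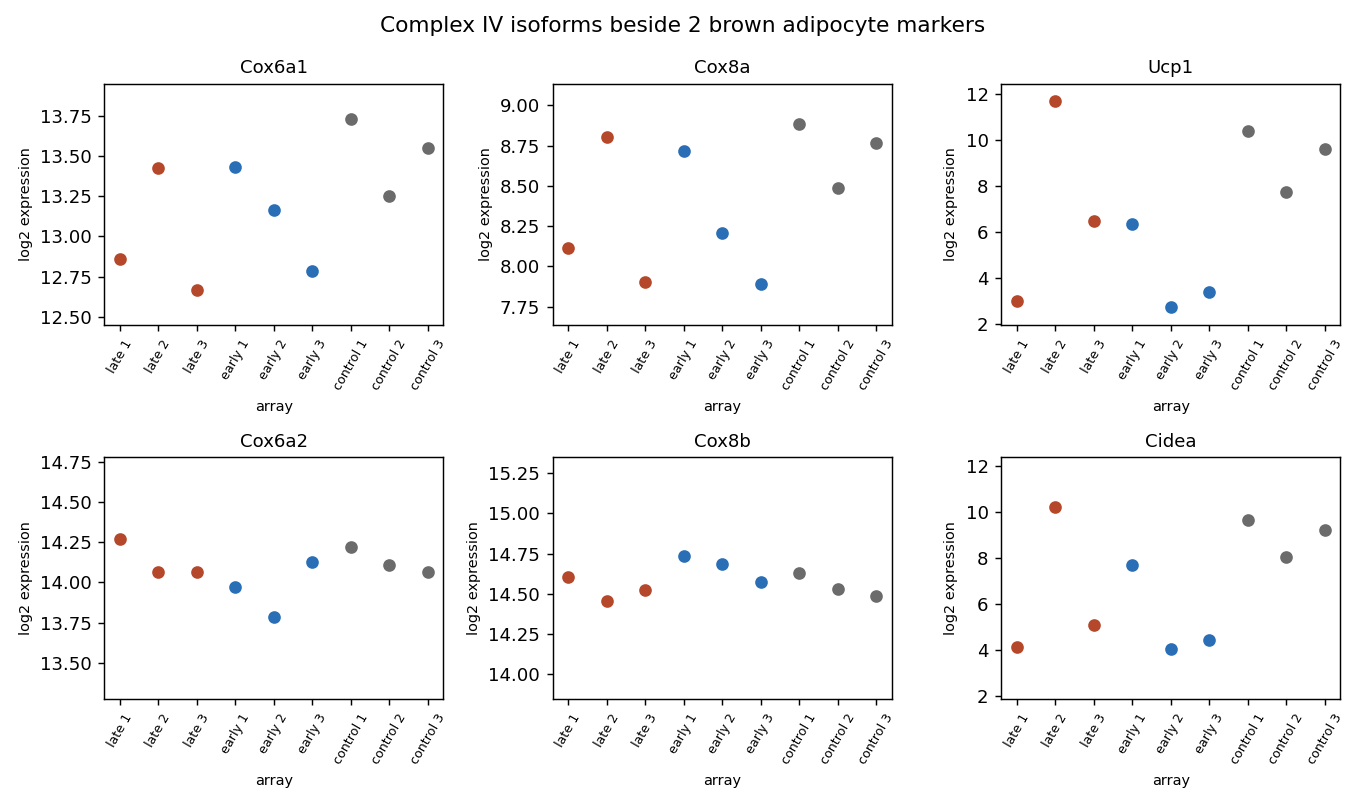
Log2 expression on each array, with late, early and control arrays from left to right, of the general isoforms Cox6a1 and Cox8a and the muscle isoforms Cox6a2 and Cox8b, on axes of equal span, beside the brown adipocyte markers Ucp1 and Cidea, on a wider span. Cox6a1, Cox8a and Cidea are highest in late 2, early 1 and the 3 controls; Cox6a2 and Cox8b vary little.

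Complex V, the ATP synthase, had no call. The median of its 17 genes was -0.04 in late minus control, -0.04 in early minus control and 0.01 in late minus early. Atp5a1, the alpha subunit of the catalytic head, had the smallest p in early minus control: it read 14.54, 14.45 and 14.46 in late muscle, 14.09, 14.16 and 14.39 in early muscle, and 14.48, 14.44 and 14.55 in control muscle. All 3 early values were lowest, by -0.27 against control (adjusted p = 0.293). Atp5b, the beta subunit, differed from control by 0.02 in late and -0.13 in early muscle. Atp5d, the delta subunit of the central stalk, ran lower in late muscle, with a late minus early difference of -0.26 (adjusted p = 0.160). The genes for the proton-carrying c ring, Atp5g1, Atp5g2 and Atp5g3, had differences from control between -0.14 and -0.02 in late and between -0.05 and 0.16 in early muscle.

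Slow fibre markers varied between animals far more than the respiratory genes did. Myh7, the myosin of slow fibres, read 13.37, 12.28 and 5.63 in late muscle, 10.96, 2.78 and 2.79 in early muscle, and 7.10, 2.81 and 9.55 in control muscle. The summed log2 level of the 10 slow fibre markers was 13.13 to 16.19 in late, 12.48 to 15.54 in early and 12.84 to 14.12 in control muscle, overlapping between groups. The median of the 85 genes was -0.07 on late 1, where Myh7 was highest. On early 2, early 3 and control 2, where Myh7 read 2.78, 2.79 and 2.81, the median of the 85 genes was -0.12, -0.02 and -0.04. The part of fibre type in the results was not tested. Of the other lists, the macrophage markers (12 of 14 tested) summed to 12.53 to 12.74 in late, 12.28 to 13.78 in early and 12.42 to 12.89 in control muscle. The 6 fibroblast markers, all tested, summed to 15.70 to 16.06 in late, 16.11 to 16.47 in early and 16.26 to 16.57 in control muscle, with late muscle wholly below both other groups. Of 7 lymphocyte markers 1 was tested (Ptprc, found on all leukocytes), and the list summed to 7.86 to 8.27 in late, 7.10 to 8.46 in early and 6.90 to 7.59 in control muscle, with late wholly above control muscle. The 7 endothelial markers summed to 11.25 to 11.55 in late, 10.99 to 11.28 in early and 11.22 to 11.59 in control muscle, and overlapped. The erythroid list, with 1 of 4 tested, summed to 4.95 to 6.96 in late, 4.78 to 5.49 in early and 5.73 to 6.42 in control muscle, with early wholly below control muscle. The part of these cell types in the results was not tested.

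Of 39 tested assembly factors of the respiratory complexes outside the name rule, 0 were called in late minus control and 0 in early minus control; in late minus early 1 was higher and 3 were lower. Over all genes tested the share called was 0.206%, 1.19% and 11.5% in these comparisons, and 4 of 39 is near the share of all genes in late minus early. The higher one was Tmem186, a complex I assembly factor, which read 7.23, 6.94 and 6.82 in late muscle, 6.10, 6.16 and 6.60 in early muscle, and 6.71, 6.68 and 6.72 in control muscle (late minus early 0.71, adjusted p = 0.0370). The lower ones were Uqcc3, for complex III (-0.92, adjusted p = 0.0270), and Cox19 and Coa3, for complex IV (-1.10 and -0.76, adjusted p = 0.0430 and 0.0491). With the replicate number as a block Uqcc3 stayed called (adjusted p = 0.0302) and the other 3 calls were lost, at 0.0531 for Tmem186, 0.0556 for Cox19 and 0.0586 for Coa3. Uqcc3 read 9.13, 9.10 and 9.14 in late muscle, 10.48, 9.82 and 9.83 in early muscle, and 9.72, 9.45 and 9.38 in control muscle, so that early muscle was highest and late muscle lowest.

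Of 16 tested carriers and partners of the chain, which include cytochrome c (Cycs), 0 were called in either comparison with controls and 1 in late minus early, where 11.5% of all genes were called. Etfdh, which feeds electrons from fatty acid oxidation into ubiquinone, was higher in late than in early muscle by 0.86 (adjusted p = 0.0409, and 0.0531 with the replicate block). Its values were 11.86, 12.27 and 11.50 in late muscle, 10.74, 11.12 and 11.19 in early muscle, and 11.22, 11.18 and 11.51 in control muscle, with no overlap between late and early. Cycs itself differed from control by -0.08 in late and -0.16 in early muscle.

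Of 13 tested transcriptional regulators, 0 were called against controls and 1 in late minus early, where 11.5% of all genes were called. Ppargc1a, a coactivator known to raise transcription of respiratory chain genes in muscle, read 9.78, 9.73 and 9.29 in late muscle, 7.38, 8.24 and 8.56 in early muscle, and 8.52, 8.72 and 8.81 in control muscle. Every late value lay above every other, and late minus early was 1.54 (SE 0.29, adjusted p = 0.0199, and 0.0334 with the replicate block). Late minus control was 0.92 (adjusted p = 0.175) and early minus control -0.62 (adjusted p = 0.284). The 85 genes had a median late minus early difference of 0.01 on the same arrays. A link between Ppargc1a and these genes was not tested. Its relative Ppargc1b did not pass in any comparison, with -0.53 in late minus control and -0.85 in early minus control (adjusted p = 0.266 and 0.117).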

How the data were processed

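Per the labels' protocols, cDNA was made from total quadriceps RNA with an oligo(dT) primer, and biotin-labelled cRNA was prepared with an Affymetrix kit. The deposited log2 values of the authors were made with GCRMA, per the submitters' processing notes, which corrects background, normalizes arrays to one another and summarises probe sets; neither its version nor its settings could be read from these sources. Array medians lay between 3.41 and 3.45, and such normalization would hide a shift common to all genes. The labels name no batch, and 3 arrays per group limit the precision. The numbered samples of a group were taken as separate mice, and p values measure the spread between them.

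The platform annotation gave gene names: of 45101 probe sets, 34945 had 1 gene, 932 several and 9224 none. Probe sets above log2 5 in at least 3 arrays (16048) gave 9697 genes, 1 probe set each by the highest mean. One model of 3 group means was fitted to all 9 arrays with limma 3.58.1 in R 4.3.3 and tested on simulated data. P values were adjusted by Benjamini-Hochberg over all genes, and a gene was called where this limma value lay under 0.05. Isoform ratios were tested by exact permutation. Cell type and pathway levels are log2 of summed linear values.

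Members and lists were chosen with earlier results of these data known. Genes named are those called, the 2 with the smallest p per complex and comparison, 14 fixed subunits and the isoform pairs. Also named are those with the largest range, the brightest and dimmest, and up to 3 per pathway list. A few with differing probe sets or p under 0.05 were chosen after their values were seen. Same-numbered arrays were compared by the correlation of their deviations from group means. It was 0.168, 0.201 and 0.160 between late and early arrays. Between late and control it was 0.0847, -0.165 and -0.110, and between early and control 0.350, 0.110 and -0.0391. The model that made the calls held no pairing. In a separate fit the replicate number was added as a block over all 9 arrays, controls included.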

Additional observations from a re-analysis of the deposited data

Results flagged for a closer look

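Late and early muscle, set against the same controls, differed for 2 of the 85 genes by the limma test of late minus early, and neither gene passed against control in either group. For Sdha the difference was 0.783899 on the log2 scale (adjusted p = 0.0412, and 0.0575 with the replicate number as a block, which ends the call), with late minus control at 0.30 and early minus control at -0.48. For Ndufaf5 it was 0.7064 (adjusted p = 0.0377, and 0.0415 with the block), with 0.37 in late and -0.34 in early muscle. Every late value lay above every early value for both genes. Late and early mice differ in age as well as in when expression began, and these cannot be told apart.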

How the results depend on the processing

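With 3 arrays per group, leaving out 1 array moved counts widely. Over these fits the genes called ran between 5 (without control 1) and 59 (without early 3) in late minus control, between 6 (without control 2) and 1756 (without early 3) in early minus control, and between 143 (without late 2) and 2959 (without early 3) in late minus early. Members called were 0 to 0, 0 to 5 and 0 to 5 in the same order, and the 5 came without early 3; their median difference ran between -0.0829 and -0.0392, between -0.122 and -0.0633, and between -0.00387 and 0.0633. Without a filter 56 genes were called in early minus control and 584 in late minus early, where 0 members were called. With only the 2 groups compared, 12, 61 and 38 genes were called, with 0 members in late minus early. With array weights, whose estimation stopped before reaching its tolerance, 1037, 3335 and 3534 genes and 1, 11 and 10 members were called, and the late minus early median was 0.0711. With the replicate block, 5 and 62 genes were called against control and 1 member (Ndufaf5) in late minus early, where Sdha had an adjusted p of 0.0575; the block moved no other call of a member. For genes that the filter, the weights or the block moved, the cause was not tested. With the mean of all passing probe sets, with probe sets ending s_at, x_at or a_at left out, and with each probe set on its own (added after seeing the data), 1 member, Uqcr10, was called in each comparison with control; with those endings left out, 0 members were called in late minus early, where Sdha then rests on its other probe set (0.51, adjusted p = 0.0674) and Ndufaf5 has none. With those endings left out Ndufs7 reversed to -0.0123 in late minus control. A higher filter, trend and robust fitting, median centring and quantile normalization kept Sdha and Ndufaf5 called. With the higher filter and with trend and robust fitting, Ndufs1 was called as well in late minus early (adjusted p = 0.0471 and 0.0367). Leaving out 1 array, the isoform ratios ran between 0.396 and 0.783, -0.0411 and 0.359, and 0.168 and 0.570 for Cox6a2/Cox6a1 in late minus control, early minus control and late minus early; between -0.146 and -0.0233, -0.0560 and 0.0296, and -0.132 and -0.00392 for Cox7a1/Cox7a2; and between 0.240 and 0.723, 0.414 and 0.746, and -0.324 and 0.164 for Cox8b/Cox8a.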
